A study of Arabidopsis thaliana with 9 samples.

Results

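Callus of an Arabidopsis thaliana line that overexpresses PNET1 was compared with callus of a pnet1 knockout, which sets the highest level of this gene in the data against the lowest. The comparison rests on 6 of 9 messenger RNA libraries, 3 of each line, and takes in all 19698 genes that were expressed highly enough to be tested, of 32833 in the table. The remaining 3 libraries are wild type and are used to place its level beside those of both lines. All plants are labelled Col-0 and untreated. Hypocotyl pieces of etiolated seedlings had been kept for 4 days on callus induction medium (CIM) and then for 10 days on shoot induction medium (SIM). The mutant columns read as 1 allele, pnet1_1, with 3 replicates. The labels give neither the promoter that drives the overexpression nor the number of independent lines. They also do not say whether replicates were separate cultures. The p-values therefore reflect only how these samples vary, and that variation may be technical.

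PNET1 is a plant transmembrane protein of the nuclear envelope, found with the nuclear pore complex, the channel through which proteins and RNA pass between nucleus and cytoplasm. Callus is a mass of dividing cells with features of lateral root tissue. On shoot induction medium, which is rich in cytokinin, parts of it turn green, form shoot meristems and then leaves with an epidermis, stomata and chloroplasts. Genes are described below by the roles their products are known for in Arabidopsis.

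Levels are given in CPM, the count of a gene scaled to the size of its library with TMM factors. A gene was called when its Benjamini-Hochberg adjusted p from the quasi-likelihood test of edgeR was under 0.05, and the log2 fold change is always overexpression minus mutant. PNET1 (AT1G07970) lies on the minus strand at chr1:2469218-2472806 in TAIR10 and is described in the deposited table as a cytochrome B561, amino-terminal protein. Its name was taken from background knowledge of the locus. The mutant libraries held 1.54, 1.12 and 1.37 CPM of PNET1, the wild type 32.7, 31.4 and 28.9 CPM, and the overexpression libraries 4590, 4912 and 5215 CPM. The 3 groups were far apart, in the order the labels give. The log2 fold change was 11.82 (SE 0.09, adjusted p = 4.7e-23), and PNET1 took up 0.492% of all counts in the overexpression line. By the FPKM values of the authors, which correct for gene length, PNET1 ranked 8, 8 and 7 from the top of 32833 genes in the overexpression libraries and 18975, 19492 and 19146 in the mutant libraries. The reads left in the mutant cannot be assigned to a part of the gene from counts per gene.

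Of the 19698 genes tested, 8576 (43.5%) were called. Expression was higher in the overexpression line for 4524 genes (23.0%) and lower for 4052 genes (20.6%). The numbers were nearly even but the sizes were not. The median log2 fold change was 0.77 among genes that were higher and -0.33 among genes that were lower. At least a 2-fold difference was seen for 1774 genes that were higher (9.01%) and 334 that were lower (1.7%), and at least a 4-fold difference for 379 and 14. Libraries of both groups did not overlap for 10545 genes (53.5%), 5323 of them higher and 5222 lower. The median over all genes was -0.02.

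The wild type mostly lay between both lines. Its mean was between those of mutant and overexpression for 90.3% of the genes that were higher and for 85.1% of those that were lower, against 58.1% of all genes tested. A contrast of the wild type with the midpoint of both lines called 631 genes (3.2%), 393 with the wild type above the midpoint (2.0%) and 238 below it (1.21%). The count of 631 was not stable: it was 79 without wild-type replicate 2 and 979 without overexpression replicate 3.

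Total counts ranged from 16890848 to 19493969, so a gene at 1 CPM rested on fewer than 20 counts in a library. The first principal component (67.7% of the variance) placed the mutant libraries at 51.2, 44.4 and 50.1, and the overexpression libraries at -23.2, -41.0 and -44.6. The wild type lay at -19.2, -16.2 and -1.57. Overexpression replicate 1 was the one nearest to the mutant, and many genes that were higher had their lowest overexpression value there. Ribosomal RNA made up 0.0437% to 0.102% of mutant counts and 0.0444% to 0.0757% of overexpression counts, ranges that overlapped. In the wild type it made up more, 0.139% to 0.190% of counts.

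**Figure D1:**
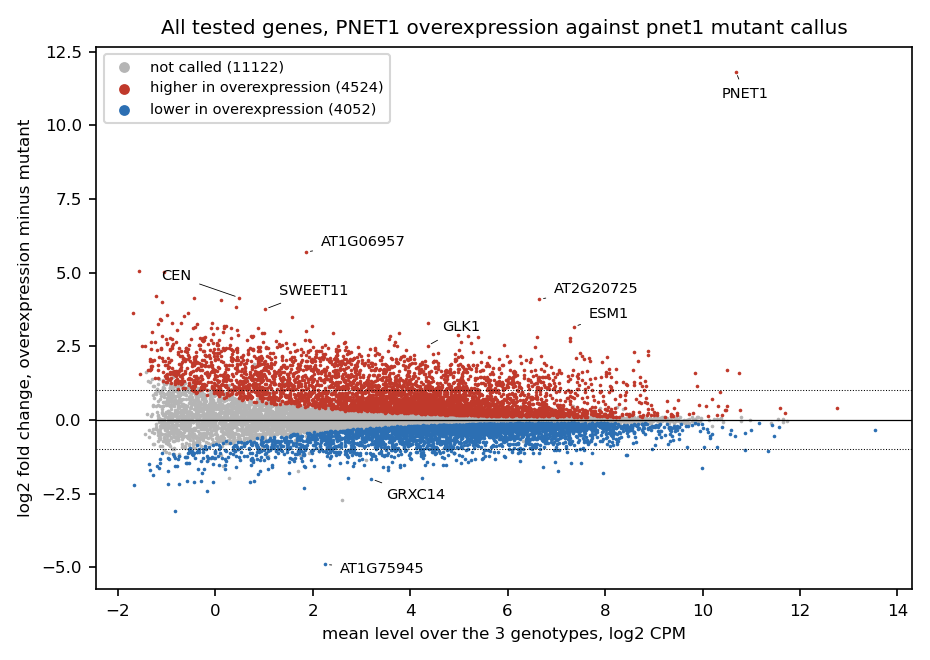
Each point is 1 of 19698 genes. The horizontal axis is its mean level over the 3 genotypes in log2 CPM and the vertical axis its log2 fold change, overexpression minus mutant, with dotted lines at a 2-fold difference. The 4524 genes that were higher reach further from 0 than the 4052 that were lower, and PNET1 stands alone at 11.82.

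The largest rises after PNET1, among genes with a symbol, joined a flowering regulator, transporters, cell wall enzymes and defence proteins. The Arabidopsis centroradialis homologue CEN, a relative of TERMINAL FLOWER 1, measured 0.114, 0.177 and 0.22 CPM in mutant libraries against 2.72, 3.66 and 3.07 CPM with overexpression. Its log2 fold change was 4.15 (SE 0.37, adjusted p = 1.2e-07), and the wild type lay at 0.659 to 1.22 CPM, between the lines. ABCB13, an ABC transporter of the auxin-carrying B class, had a log2 fold change of 4.07 (SE 0.49), from at most 0.177 CPM in the mutant to 1.39, 2.29 and 2.37 CPM. The sugar exporter SWEET11 measured 0.57, 0.059 and 0.11 CPM against 1.66, 4.24 and 4.37 CPM, a log2 fold change of 3.76 (SE 0.57). Groups without overlap were a condition for naming these genes, so their separation is not a result. The overexpression values of SWEET11 were spread widely, with replicate 1 lowest. Further rises were those of the wall-loosening xyloglucan endotransglucosylase XTH6 (3.2), the laccase LAC3 (3.18), the peroxidase PER64 (3.03), the nitrate transporter NRT2.3 (3.13), the cold-induced COR15B (3.01) and BHLH72 (3.13), which is the phytochrome interacting factor PIF7.

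Among genes with a symbol that met the same conditions, the largest falls were smaller, and 5 of the 12 named were in genes of hormone enzymes. ACS8, which makes the precursor of ethylene, measured 32.3, 30.8 and 31.5 CPM in the mutant against 8.98, 7.38 and 7.87 CPM, a log2 fold change of -1.96 (SE 0.11, adjusted p = 2.0e-09). GA1, which catalyses the first committed step of gibberellin synthesis, measured 12.8, 10.4 and 12.4 CPM against 4.21, 2.46 and 2.32 CPM, a log2 fold change of -1.98 (SE 0.18). The cytokinin oxidase CKX3, which degrades cytokinin, was among the more abundant genes that fell, with 207, 190 and 209 CPM in mutant libraries against 70.9, 53.8 and 59.2 CPM with overexpression (-1.72, SE 0.20). For ACS8, GA1 and CKX3 the wild type lay between both lines. The others were the glutaredoxin GRXC14 (-2.0), the regulators MYB101 (-1.81) and anac097 (-1.61), the defensin PDF2.1 (-1.80), the peroxidase PER28 (-1.75), the lignin laccase LAC11 (-1.69), the jasmonate-inactivating CYP94B3 (-1.66), the phenolic malonyltransferase PMAT2 (-1.62) and the brassinosteroid-related CYP724A1 (-1.61). PDF2.1 was abundant in the mutant, at 428, 379 and 383 CPM against 140, 108 and 95.1 CPM.

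**Figure D2:**
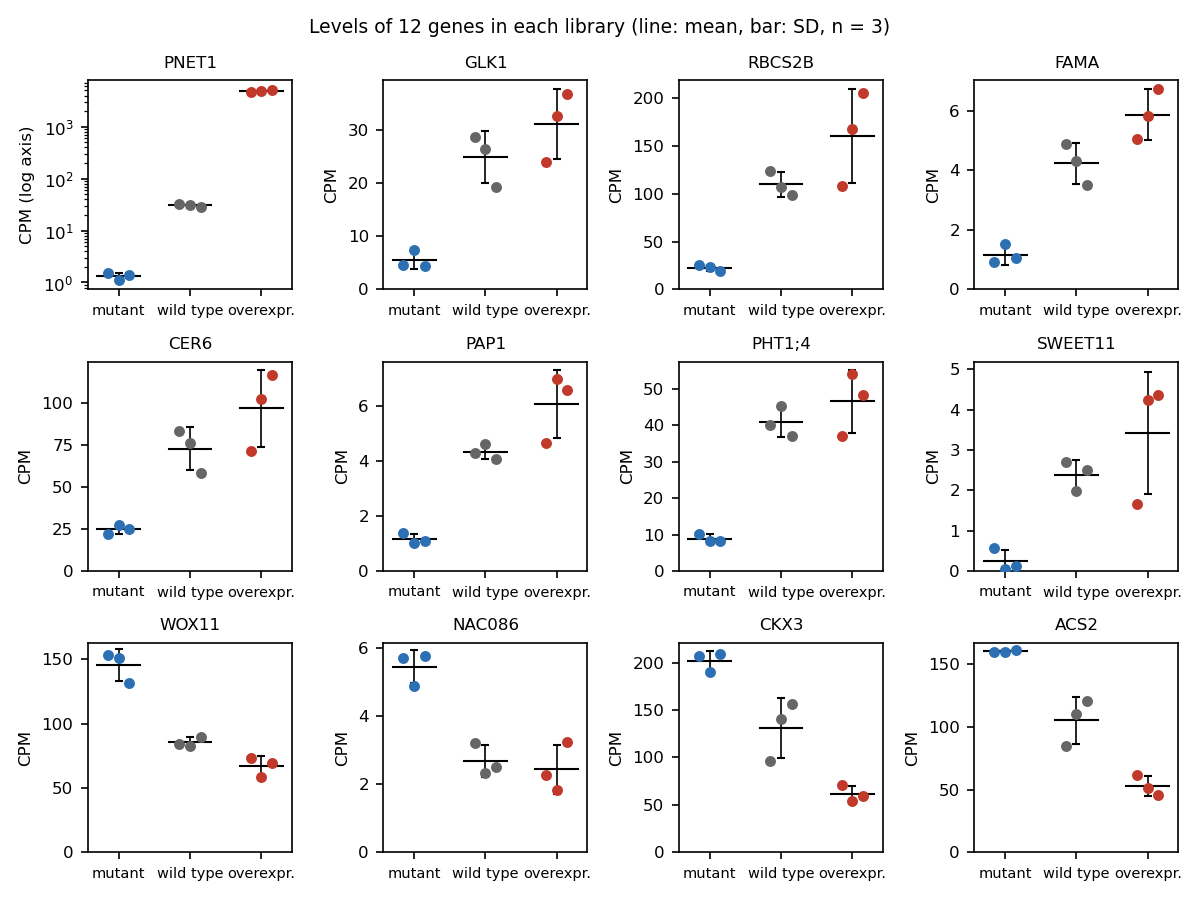
Each panel plots the level of 1 gene in CPM in the 9 libraries; points are libraries, the line is the mean and the bar the SD over 3 libraries, and the PNET1 axis is logarithmic. In the 12 genes shown mutant and overexpression libraries do not overlap and the wild-type mean lies between the 2 line means, as for GLK1, whose mutant libraries stay below 7.5 and whose overexpression libraries lie between 24.0 and 36.8 CPM.

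Genes of photosynthesis were higher in the overexpression line without an exception among those listed. All 44 nuclear photosynthesis genes were called higher, with a median log2 fold change of 1.5, and their summed level went from 5775 to 6060 CPM in the mutant to 13687 to 18808 CPM. The wild type lay between the lines, at 10663 to 13602 CPM, nearer to the overexpression line. RBCS2B, a small subunit of the carbon-fixing enzyme Rubisco, measured 25.4, 23.4 and 19 CPM in mutant libraries against 108, 168 and 205 CPM with overexpression, a log2 fold change of 2.83 (SE 0.28, adjusted p = 0.00023). RBCS1B (2.56), RBCS3B (2.29) and the antenna protein LHCB1.1 (2.28) followed. These genes have near-identical copies, so the share of each single copy is uncertain. In chlorophyll synthesis 11 of 12 tested genes were higher, among them DVR (1.67), PORB (1.56), PORC (1.49) and the magnesium chelatase subunit CHLI1 (1.3). The same held for 11 of 11 regulators of greening. GLK1, which switches on photosynthesis genes in developing chloroplasts, measured 4.62, 7.44 and 4.34 CPM against 24.0, 32.7 and 36.8 CPM (2.52, SE 0.28, adjusted p = 0.00024). The GATA factors GNC (1.90) and CGA1 (1.86), which cytokinin induces, were higher too, and so was PIF1 (1.81), a repressor of greening in the dark. The shares to compare are the 23.0% and 20.6% of all genes tested.

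Epidermal genes were also higher. Of 19 tested genes of epidermis and stomata 15 passed the test, all higher, with a median of 1.87 over the 19. The summed level of the 19 genes was 107 to 127 CPM in the mutant, 191 to 244 CPM in the wild type and 249 to 347 CPM in the overexpression line. Stomata form through a series of related factors. MUTE, which ends the divisions of the stomatal precursor, measured 0.057, 0.236 and 0.385 CPM against 1.33, 1.66 and 2.53 CPM (2.98, SE 0.45, adjusted p = 3.3e-05). FAMA, which acts after it in guard cell formation, measured 0.913, 1.54 and 1.04 CPM against 5.05, 5.84 and 6.74 CPM (2.34, SE 0.22). Groups did not overlap for either gene. The secreted peptide EPF2 (2.3), which limits the number of precursors, and the polarity protein BASL (2.27) followed. All 18 tested cuticle genes, of 22 listed, were higher, with a median of 1.75. SHN2, an activator of cuticle genes, had a log2 fold change of 3.63 (SE 0.55), from at most 0.114 CPM in the mutant. The wax enzymes CER6 and CER2 changed by 1.95 and 2.03, and GPAT6, which makes cutin precursors, by 1.92. CER6 measured 22.1, 27.6 and 25.2 CPM against 71.5, 103 and 116 CPM. In bulk tissue, more cells of a type and more RNA of that type per cell cannot be told apart.

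The L1 box, a sequence bound by the homeodomain factors of the epidermal layer, was searched as TAAATGNA on both strands of the 250 bases before each gene start. Any base was allowed at N, so a match need not be the form that these factors bind. A match to this pattern was found in 5 of 19 tested epidermis genes (26.3%) and 5 of 18 tested cuticle genes (27.8%), against 9.89% of 19641 tested genes. Promoters of MUTE and of LACS1, a wax and cutin acyl-CoA synthetase that changed by 1.88 (SE 0.21, adjusted p = 0.00037), are shown because both match TAAATGNA and both genes were higher. The match of LACS1 reads TAAATGAA. Both promoters were read from the RefSeq TAIR10.1 genome at positions that match those of the files, 5′ to 3′ along the strand of the gene. Capitals mark each match in either orientation. MUTE holds 3 matches, 2 of which overlap, and LACS1 holds 1. The stretch of MUTE is chr3:1846192-1846441 and that of LACS1 is chr2:19392247-19392496, both on the plus strand.
MUTE: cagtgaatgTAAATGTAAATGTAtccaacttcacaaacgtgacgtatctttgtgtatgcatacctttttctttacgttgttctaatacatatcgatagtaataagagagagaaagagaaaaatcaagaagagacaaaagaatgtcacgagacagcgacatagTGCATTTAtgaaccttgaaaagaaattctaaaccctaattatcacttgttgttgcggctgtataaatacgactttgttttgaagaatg
LACS1: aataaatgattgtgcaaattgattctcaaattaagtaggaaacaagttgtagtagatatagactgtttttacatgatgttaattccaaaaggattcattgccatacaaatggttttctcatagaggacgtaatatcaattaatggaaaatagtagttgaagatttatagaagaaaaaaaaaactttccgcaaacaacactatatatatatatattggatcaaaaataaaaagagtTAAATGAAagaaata
A match describes the letters of this window and not a site in use.

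Genes of pigment and defence metabolism were mostly higher too. Of 18 tested flavonoid and anthocyanin genes 17 were higher, with a median of 1.97. PAP1, the MYB factor that activates anthocyanin synthesis, measured 1.37, 1.0 and 1.1 CPM in mutant libraries against 4.66, 6.98 and 6.58 CPM with overexpression (2.38, SE 0.21, adjusted p = 1.0e-07). Its relative PAP2 (2.26), the flavonol regulator MYB111 (2.15) and the anthocyanin malonyltransferase 5MAT (2.32) were higher too. Among 27 tested genes of glucosinolates, the mustard oil precursors of this plant family, 21 were higher and 2 lower, and the median was 1.61. Only 1 was lower without mutant replicate 1 or 3 or overexpression replicate 2 or 3. Both of the largest changes were in proteins that steer glucosinolate breakdown. ESM1 measured 32.9, 32.9 and 29.8 CPM against 177, 299.7 and 376 CPM (3.16, SE 0.31, adjusted p = 0.00023), and ESP measured 0.513, 0.59 and 0.33 CPM against 4.05, 5.27 and 6.79 CPM (3.48, SE 0.31). In ESM1 overexpression replicate 1 lay near the wild type, at 149 to 195 CPM. The chain-elongation enzyme MAM3 (2.88) and the oxime-converting CYP83A1 (2.13) were further members.

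Phosphate starvation genes were higher in the overexpression line, although in several the wild type was as high or higher. Of 22 listed genes 18 were tested and 13 were called, all higher, and the median was 1.15. The high-affinity phosphate transporter PHT1;4 measured 10.2, 8.15 and 8.35 CPM in the mutant, 40.2, 45.3 and 37.2 CPM in the wild type and 37.2, 54.1 and 48.4 CPM in the overexpression line (2.39, SE 0.16, adjusted p = 3.1e-06). Wild type and overexpression overlapped, and the mutant lay apart from both. PHT1;1 (2.34), which has near-identical neighbours, and the galactolipid synthase MGD3 (1.91) followed. IPS1, an RNA that sequesters the phosphate regulator miR399, had 0 counts in the mutant libraries and 5, 6 and 1 counts in the overexpression libraries, so it was at least 3.90-fold higher against a floor of 3 counts over the group. Its wild-type level, 0.659 to 1.01 CPM, was above the overexpression line in every library.

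The element P1BS, the binding sequence of the phosphate starvation regulator PHR1, was searched as GNATATNC in the same window on both strands. It was found in 5 of 18 tested phosphate genes (27.8%) and in 5.41% of 19641 tested genes. Of those 5 genes, AT4 and PS2 were called higher, and SPX3, NPC4 and MGD2 were not called. The remaining called members of the list, among them PHT1;4 and PHT1;1, held no match in this window. AT4, an RNA of the IPS1 family, changed by 1.74 (SE 0.20, adjusted p = 5.2e-06), and the pyrophosphatase PS2 by 1.70 (SE 0.28, adjusted p = 0.00016). These genes and LACS1 were picked after their values were seen. The promoters of AT4 and PS2 are shown because both genes were called higher, 5′ to 3′ along the strand of the gene, with the element in capitals. The stretch of AT4 is chr5:894332-894581 on the plus strand, and that of PS2 is chr1:27466349-27466598 on the minus strand. The element starts 26 bases before the gene start in AT4 and 217 bases before it in PS2.
AT4: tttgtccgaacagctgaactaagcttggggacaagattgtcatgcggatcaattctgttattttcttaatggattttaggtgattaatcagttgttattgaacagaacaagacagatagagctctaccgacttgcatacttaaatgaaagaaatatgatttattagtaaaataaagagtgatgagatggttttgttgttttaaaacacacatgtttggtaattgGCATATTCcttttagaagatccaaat
PS2: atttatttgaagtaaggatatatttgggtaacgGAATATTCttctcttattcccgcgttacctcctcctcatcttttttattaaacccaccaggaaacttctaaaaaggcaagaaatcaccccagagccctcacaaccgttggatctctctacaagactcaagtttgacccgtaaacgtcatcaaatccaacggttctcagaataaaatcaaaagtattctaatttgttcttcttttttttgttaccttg

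Other nutrient genes moved by member. Among 17 tested nitrate genes 11 were higher and 3 lower. The transporter NRT2.3 measured 0.228, 0.236 and 0.549 CPM against 2.77, 3.03 and 3.29 CPM, and the plastid glutamine synthetase GLN2, which is also a leaf gene, measured 149, 148 and 144 CPM against 351, 398 and 453 CPM (1.45, SE 0.11). NRT1.5 changed by 2.42 and the NRT2 partner NRT3.1 by 1.34. Among 9 tested genes of iron supply 5 were higher and 1 lower, or 2 lower without mutant replicate 2. The iron store FER1 changed by 1.05 (SE 0.06, adjusted p = 5.8e-09) and FER4 by 0.78, and the citrate exporter FRD3 by 2.15. The median of the iron genes ranged from -0.29 to 0.67 over the alternative settings, so no direction is given for them as a group.

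Shoot and leaf regulators split by role. The central stem cell genes showed no common rise: STM changed by 0.31 (adjusted p = 0.11), WUS by -0.44 (adjusted p = 0.42), and the stem cell peptide CLV3 fell from 7.65 CPM in the mutant to 4.86 CPM in the overexpression line (-0.65, adjusted p = 0.0033), with 2.82 CPM in the wild type. STM, WUS and CLV3 were picked after their values were seen. The CLV3 receptor CLV1 was higher, with 16.7, 16.0 and 15.1 CPM against 25.5, 29.5 and 36.1 CPM (0.93, SE 0.12). Over 27 tested genes of meristem and boundary 9 were higher and 8 lower. The boundary gene CUC3 (1.75) and the BELL homeobox gene ATH1 (1.29) were higher, while ESR1 (-1.02), an inducer of shoot regeneration also called DRN, was lower. Of 23 genes of leaf polarity and leaf growth 16 were higher and 6 lower, with a median of 1.33. The largest rises were those of PRS (2.12), AS2 (2.04), TCP3 (2.03) and YAB5 (2.01), which pattern or limit the growth of leaf blades. YAB5 measured 2.05, 1.3 and 1.76 CPM against 5.49, 7.44 and 7.82 CPM. The summed level of these 23 genes was nevertheless lower, at 1800 to 1838 CPM in the mutant and 1471 to 1546 CPM in the overexpression line.

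Callus and wound regeneration genes went the other way. Of 18 tested genes 11 were lower and 1 was higher, the median was -0.58, and the summed level was 1665 to 1759 CPM in the mutant and 1129 to 1308 CPM in the overexpression line. WOX11, which starts the callus founder cells, measured 154, 151 and 131 CPM against 73.6, 58.5 and 69.5 CPM (-1.11, SE 0.08, adjusted p = 1.2e-06). ERF115 (-1.28) and ANAC096 (-1.22), both active in wound repair, were lower as well. The exception was WOX5, which marks the quiescent centre of the root and the middle layer of callus, at 1.65, 1.54 and 1.43 CPM against 3.77, 4.75 and 5.23 CPM (1.57, SE 0.20). Among 5 tested root meristem genes WOX5, SCR (1.48) and JKD (1.84) were higher, and SHR (-0.88) and UPB1 (-1.20) lower, although SHR, picked after its value was seen, is the factor that activates SCR. The 5 tested genes of root cap and root hair changed little or were too low to judge, as with RHD6 (0.15, adjusted p = 0.56).

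Vascular genes were divided as well. Of 18 tested phloem genes 13 were lower, with a median of -0.64, and their summed level went from 1253 to 1306 CPM in the mutant to 763 to 891 CPM. NAC086, which directs the loss of the nucleus in sieve elements, measured 5.70, 4.90 and 5.77 CPM against 2.27, 1.83 and 3.24 CPM (-1.15, SE 0.20, adjusted p = 0.00013), and its target NEN4, a nuclease, changed by -0.99. The sucrose exporters SWEET11 and SWEET12 (2.11) were the 2 members that were higher, and they act in phloem parenchyma rather than in sieve elements. In xylem 6 of 18 tested genes were lower and 1 was higher, or 3 higher without wild-type replicate 1 and 2 without wild-type replicate 3 or overexpression replicate 1. The proteases of dying vessel cells XCP1 (-1.26) and XCP2 (-0.89) and the vessel factor VND1 (-1.0) were lower, and the fibre wall factor NST1 (1.40) was higher. XCP1 measured 31.9, 34.5 and 47.1 CPM against 17.1, 13.9 and 16.6 CPM. Genes of the endodermis and of suberin, its waxy wall polymer, were more often higher: 9 of 14 tested genes, with a median of 1.08. They included PER64, which builds the Casparian strip (0.057, 0.354 and 0.879 CPM against 2.94, 2.86 and 5.02 CPM), the suberin enzymes ASFT (1.79) and CYP86A1 (1.61), and GPAT5 (1.53). Whether these marker differences take part in the changes of other genes was not tested.

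**Figure D3:**
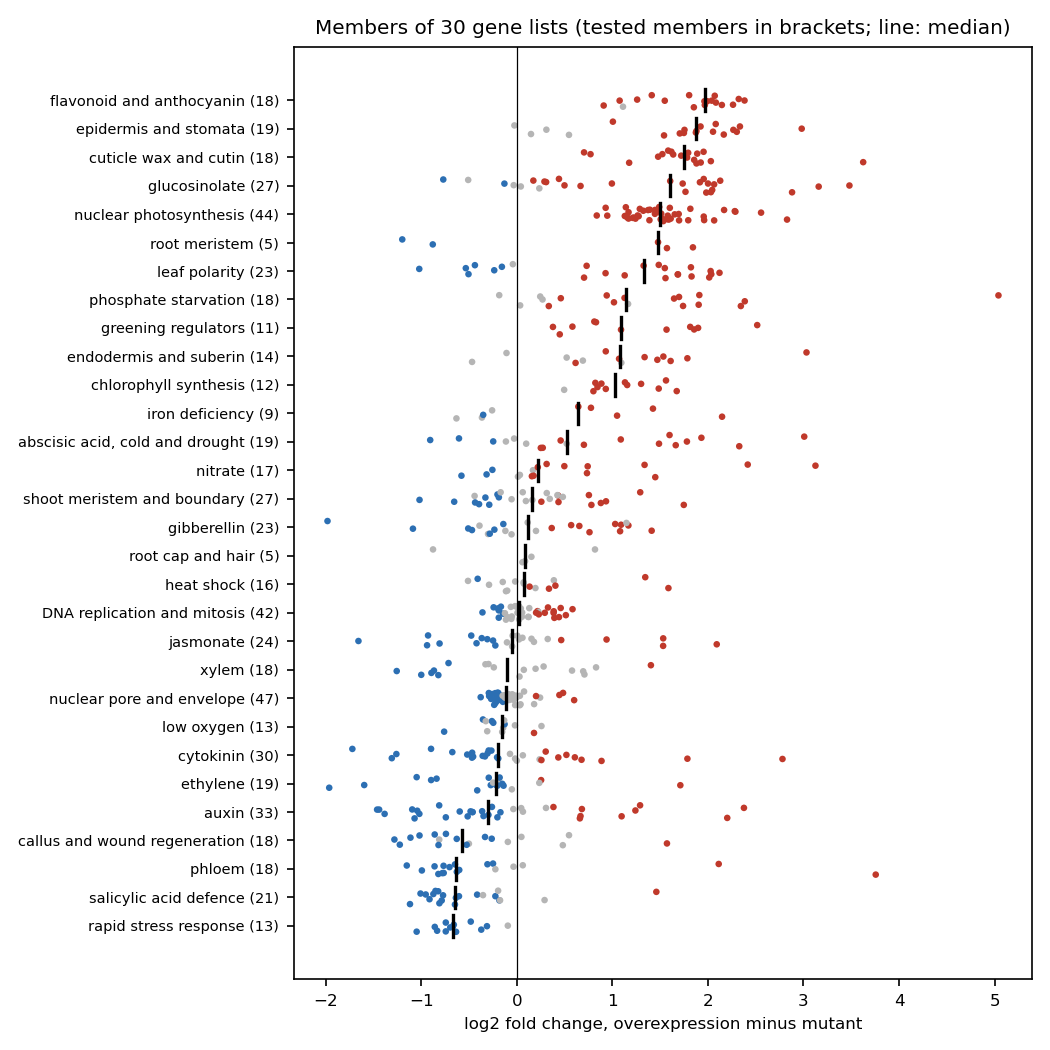
Each point is a tested member of 1 of 30 gene lists, placed by its log2 fold change, overexpression minus mutant; red points were called higher, blue points lower and grey points were not called, and black lines are medians. Flavonoid, epidermis, cuticle and photosynthesis genes lie almost wholly to the right, while phloem, salicylic acid and rapid stress genes lie mostly to the left.

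Cytokinin is the hormone that drives shoot formation on this medium, and auxin the one that maintains callus. Of 30 tested cytokinin genes 9 were higher and 16 lower. LOG1, which releases active cytokinin, rose from 0.228, 0.177 and 0.385 CPM to 1.44, 1.72 and 2.43 CPM (2.78, SE 0.37, adjusted p = 8.9e-06). The cytokinin oxidases did not move as one: CKX4 (1.79) was higher and CKX3 and CKX6 (-1.31) were lower, but the call of CKX6 was lost with DESeq2 (adjusted p = 0.085), with the replicate block (adjusted p = 0.060), and without mutant replicate 2 or 3 or overexpression replicate 2 or 3 (adjusted p up to 0.15). Of 33 tested auxin genes 9 were higher and 20 lower, with a median of -0.30. The auxin synthesis genes YUC2 (2.38) and YUC8 (2.2) were higher from very low levels, with YUC8 at 0.456, 0.059 and 0.165 CPM against 0.998, 1.14 and 1.08 CPM. IAA30, a repressor of auxin signalling, was lower, at 28.6, 28.6 and 29.3 CPM against 10.5, 10.7 and 10.6 CPM (-1.44, SE 0.09, adjusted p = 4.5e-09), and so was GH3.1 (-1.46). Families of auxin-responsive genes read from the descriptions were not of 1 direction. SAUR proteins were higher in 12 and lower in 3 of 23 cases, with a median of 0.70, and 19 were higher with no filter. Aux/IAA proteins were higher in 14 and lower in 20 of 48, with a median of -0.12, which some settings turned positive; by their descriptions some SAUR genes are counted there too.

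Further hormone groups had calls in both directions. Ethylene genes were mostly lower, 13 of 19 against 2 that were higher, or 1 without overexpression replicate 2 and 4 with no filter. ACS2, a second gene for the precursor enzyme, measured 159.7, 159 and 161 CPM against 61.7, 51.0 and 46.0 CPM (-1.6, SE 0.15), and ERF6 changed by -1.05. The last enzyme of the pathway, ACO4 (1.71), was higher. In gibberellin 9 of 23 tested genes were higher and 7 lower: GASA1 (1.41) and the synthesis enzyme GA20OX2 (1.17) rose, in contrast to GA1, and GA20OX1 (1.09) lost its call with DESeq2 (adjusted p = 0.056), without mutant replicate 3 (adjusted p = 0.14) and without overexpression replicate 1 (adjusted p = 0.089). Jasmonate genes were called higher in 5 and lower in 10 of 24 cases. The synthesis enzymes LOX2 and AOC1, both chloroplast proteins, were higher by 2.09 and 1.53, with LOX2 at 67.8, 83.0 and 76.1 CPM against 266, 317 and 384 CPM. Salicylic acid defence genes were lower in 16 of 21 cases, with a median of -0.65, led by the transcription factors WRKY62 (-1.12), WRKY54 (-1.01) and WRKY70 (-0.95). PR5, a late defence protein, was the only member called higher (1.46), at 26.9, 30.3 and 28.5 CPM against 57.6, 89.6 and 88.7 CPM.

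Stress genes differed in direction from list to list. Among 19 tested genes of abscisic acid, cold and drought 12 were higher and 3 lower, with a median of 0.52. COR15B measured 0.628, 0.768 and 0.879 CPM against 4.66, 6.58 and 7.23 CPM (3.01, SE 0.26, adjusted p = 8.7e-08), and COR15A, which protects chloroplast membranes in the cold, changed by 2.33. KIN1 (1.93) and RD20 (1.78) were further members. Of 13 tested genes of the rapid stress response, many of them induced quickly by touch or wounding, 12 were lower, with a median of -0.67. ERF6 measured 34.7, 34.9 and 31.4 CPM against 18.4, 15.6 and 14.9 CPM, and the calmodulin-like TCH3 233, 214 and 235 CPM against 157, 126 and 125 CPM (-0.74, SE 0.09). BAP1 (-0.86) and MYB15 (-0.83) were lower too. Of 13 tested low oxygen genes 5 were lower, with HRE1 at -0.76 and the sucrose synthase SUS4 at -0.35. Among 16 tested heat shock genes 5 were higher and 1 lower, but 2 were higher without mutant replicate 1 and 3 without overexpression replicate 2 or 3. The mitochondrial HSP23.5 (1.59) and the regulator HSFA2 (1.34) had the largest changes.

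Genes of the nuclear pore and nuclear envelope, the structure PNET1 belongs to, changed by small amounts. Of 47 tested genes 18 were lower and 4 higher, shares of 38.3% and 8.51%, with a median of -0.12, and no call reached a 2-fold difference. The pore scaffold protein NUP205 measured 189, 197 and 200.4 CPM in mutant libraries against 150.4, 145 and 156 CPM with overexpression, with the wild type at 171 to 178 CPM (-0.38, SE 0.04, adjusted p = 1.8e-06). The groups did not overlap. On the other side stood the envelope-associated coiled-coil proteins NEAP1 (0.60) and NEAP2 (0.45) and SINE1 (0.48), which links the outer envelope to actin. DNA replication and mitosis genes were close to level, with 12 of 42 higher and 7 lower, a median of 0.03 and no change of 2-fold among the calls. The mitotic kinases AUR3 (0.58) and AUR2 (0.46) and the cyclins CYCD3;2 (0.51) and CYCB1;1 (0.44) were the largest. The count of 7 was 3 without overexpression replicate 2 and 4 without mutant replicate 2 or 3.

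Genes of the plastid genome, like the nuclear photosynthesis genes, were higher in the overexpression line than in the mutant, but the wild type was placed differently. The libraries were made from mRNA, in which plastid transcripts are rare, and 33 of 133 plastid genes were tested. Of these 16 were higher, with a median of 0.92, and the share of all counts from plastid genes was 0.00260% ± 0.000180 (SD, n = 3) in the mutant and 0.00499% ± 0.000476 (SD, n = 3) in the overexpression line. The wild-type mean was the highest, at 0.00563% ± 0.000811 (SD, n = 3), and its libraries overlapped with those of the overexpression line. Wild-type libraries also held the most ribosomal RNA, 0.139% to 0.190% of counts. Mitochondrial genes summed to 256 to 330 CPM there, 121 to 261 CPM in the mutant and 96.5 to 153 CPM in the overexpression line. Whether this bears on the plastid placement was not tested. For the nuclear photosynthesis genes the summed wild-type level lay below the overexpression line. The highest wild-type library, at 13602 CPM, was close to the lowest overexpression library, at 13687 CPM. The plastid gene ATPH, a subunit of the chloroplast ATP synthase, measured 0.057, 0.118 and 0.22 CPM against 0.554, 0.973 and 0.755 CPM (2.45, SE 0.54). At these levels calls depend on few counts: 8 plastid genes were called higher with a filter of 1 CPM in 3 libraries, 9 without mutant replicate 1 or overexpression replicate 2, and 10 without overexpression replicate 3. Mitochondrial genes gave 1 call among 23 tested, ORF275 (-0.76, adjusted p = 0.043), which was lost with DESeq2 (adjusted p = 0.084), with the replicate block (adjusted p = 0.051) and without any 1 of 5 libraries, up to an adjusted p of 0.20 without overexpression replicate 3.

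Families read from the gene descriptions widened these groups. Of 23 light-harvesting proteins 23 were higher, of 31 photosystem subunits 27 and of 39 plastid ribosomal proteins 30, with medians of 1.39, 1.29 and 1.15. Ribosomal proteins of every compartment, 299 tested genes, had a median of 0.01, with 14.0% higher and 5.69% lower. LHB1B1, an antenna protein, had the largest change among light-harvesting genes, from 3.42, 2.66 and 4.72 CPM to 21.1, 41.1 and 43.8 CPM (3.28, SE 0.44, adjusted p = 0.0011). Families with members that act on surface lipids stood close by. Of 17 3-ketoacyl-CoA synthases, which elongate fatty acids for wax, 13 were higher with a median of 1.48, led by KCS3 (2.21), KCS5 (2.08) and HIC (2.06). Lipid transfer proteins were higher in 23 and lower in 4 of 32 cases, and GDSL lipases, some of which act on cutin, in 35 and 4 of 57. The GDSL lipases include ESM1, named above for glucosinolate breakdown. LTP5 measured 26.4, 31.5 and 21.2 CPM against 112, 163 and 160.1 CPM (2.46, SE 0.24).

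Cell wall, metabolic and transport families were mixed. Peroxidases were higher in 33 and lower in 12 of 68 cases, and cytochrome P450 enzymes in 47 and 19 of 106, with medians of 0.40 and 0.36. Xyloglucan endotransglucosylases were split evenly, 8 higher and 8 lower of 25, as were glutathione S-transferases, 14 and 14 of 45, with medians of -0.10 and -0.11, and the first of these medians changed sign in some settings. UDP-glycosyltransferases were higher in 18 and lower in 15 of 50 cases, and ABC transporters in 31 and 18 of 79, with medians of 0.08 and -0.01. Expansins, which loosen walls, included 11 that were higher and 5 lower of 23. Their summed level was 4284 to 4291 CPM in the mutant and 3220 to 3566 CPM in the overexpression line. EXPA5 measured 2.05, 2.18 and 3.35 CPM against 7.87, 11.6 and 14.2 CPM (2.14, SE 0.24). The extensin gene ATEXT4, a structural wall protein, measured 107, 178 and 177 CPM against 515, 835 and 791 CPM (2.21, SE 0.28), and the germin-like protein GER3 38.4, 53.5 and 33.8 CPM against 201, 281 and 319 CPM (2.67, SE 0.25). Of 6 tested SWEET sugar transporters 5 were higher, including SWEET1 (2.02). Aquaporins were higher in 8 and lower in 3 of 16 cases (5 lower without overexpression replicate 1), with TIP1-1, a water channel of the vacuole, at 61.2, 67.1 and 62.0 CPM against 173, 208 and 212 CPM (1.64, SE 0.12).

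Families of transcription factors and signalling proteins were divided. NAC proteins were lower in 26 and higher in 5 of 50 cases, WRKY proteins in 24 and 7 of 46, bZIP proteins in 17 and 5 of 36 and AP2/ERF proteins in 34 and 15 of 93. AtbZIP7 measured 21.0, 18.1 and 19.4 CPM against 8.26, 8.53 and 8.63 CPM (-1.20, SE 0.11, adjusted p = 1.4e-07). The WRKY genes that were higher included WRKY44 (2.14), a trichome and seed coat regulator also called TTG2, WRKY29 (1.84) and WRKY8 (1.47). TCP proteins, many of which limit leaf growth, were higher in 11 and lower in 2 of 21 cases (1 lower without mutant replicate 1 or overexpression replicate 2 or 3), with TCP4 at 7.30, 9.15 and 7.75 CPM against 22, 27.8 and 28.1 CPM (1.69, SE 0.12). Calmodulins and other EF-hand proteins, which sense calcium, were lower in 32 and higher in 7 of 59 cases, with a median of -0.17. Of these calls, 2 lower and 3 higher reached a 2-fold difference. The calmodulin-binding defence regulator CBP60G measured 60.6, 54.3 and 60.8 CPM against 34.9, 30 and 28.4 CPM (-0.91, SE 0.08). Among the large families of protein turnover, F-box proteins were lower in 68 and higher in 15 of 271 cases, close to the 20.6% background for lower genes, at 25.1%, and below the 23.0% for higher genes, at 5.54%. Pentatricopeptide repeat proteins, which process organelle RNA, were called in few cases: 53 of 413 were higher and 8 lower, or 3 lower without mutant replicate 3 and 2 without overexpression replicate 2. Kinesins were called higher in 10 and lower in 11 of 47 cases, but the lower count was 5 without overexpression replicate 2 and 7 without mutant replicate 2, and the higher count 6 without mutant replicate 2 or 3 and 5 without overexpression replicate 3.

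**Figure D4:**
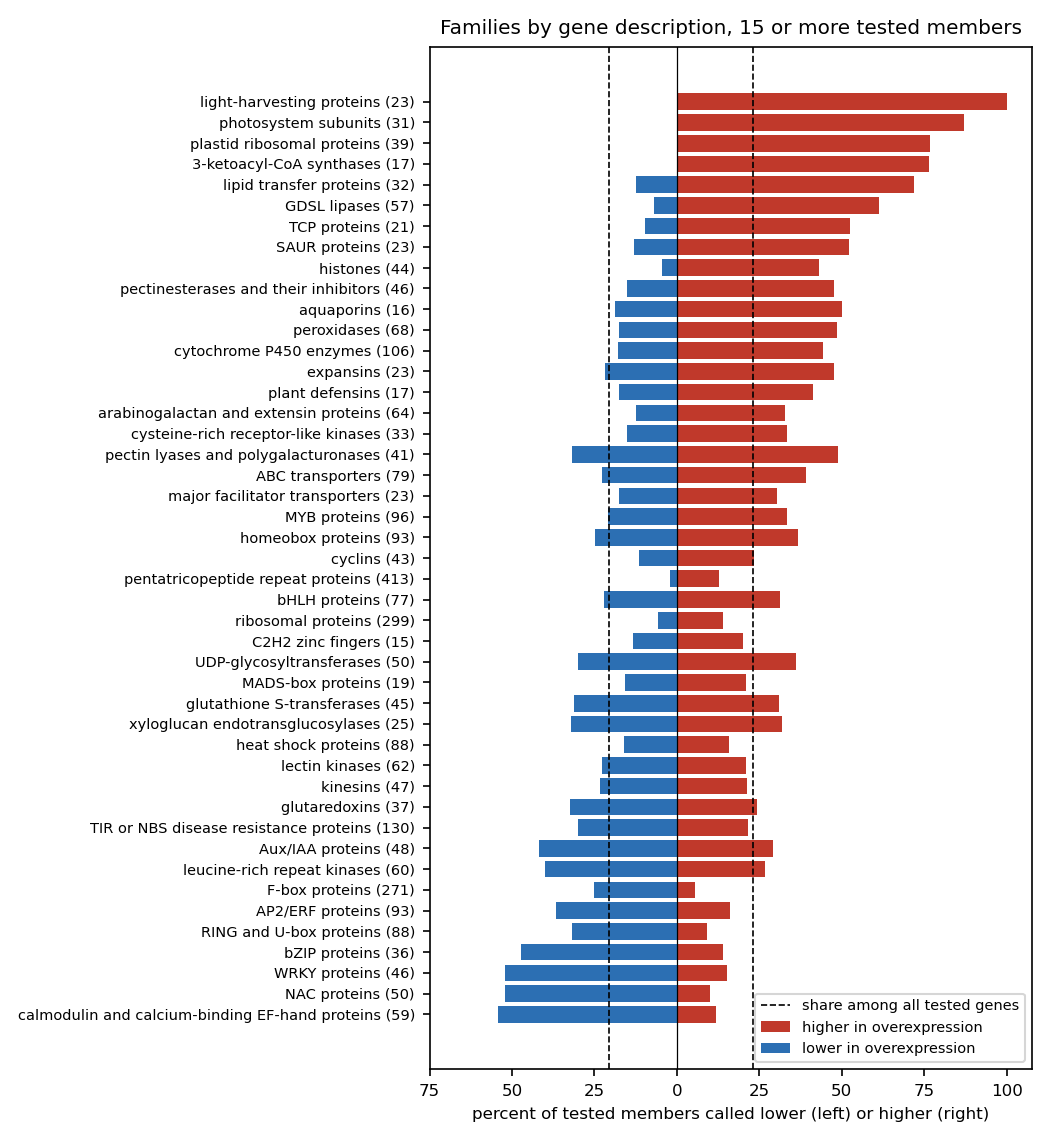
Bars give the percentage of tested members of each family that were called higher (red, right) or lower (blue, left) in overexpression against mutant, for families with 15 or more tested members; dashed lines are the shares among all genes tested, 23.0% and 20.6%. Light-harvesting proteins reach 100% higher, and calmodulin and EF-hand proteins are the family with the largest share lower, 54.2%.

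A few genes of large change stood apart from these groups, and the next genes named were picked after their values were seen. AT2G20725, described as a CAAX amino terminal protease family protein, lies at chr2:8933317-8935496 and had the smallest adjusted p after PNET1. It measured 14.9, 15.1 and 16.9 CPM in the mutant, 16.6, 18.6 and 18.1 CPM in the wild type and 267, 265 and 273 CPM in the overexpression line (4.1, SE 0.06, adjusted p = 2.8e-19). Mutant and wild type were nearly level and the overexpression line alone stood apart. The adjacent gene TOM2AH3, a tetraspanin on the opposite strand at chr2:8935537-8937554, measured 14.1, 14.1 and 14.5 CPM in the mutant, 12.2, 14.2 and 14.2 CPM in the wild type and 4.66, 5.44 and 4.04 CPM in the overexpression line (-1.6, SE 0.12, adjusted p = 1.8e-08). The other 19 tested genes around AT2G20725 changed by -0.89 to 1.16, and 5 of them were called. Around PNET1 itself, the adjacent PDIL5-1 (-0.03) and NF-YC10 (-0.17) were not called, and AT1G07985, an expressed protein, was higher at 1.77, 1.55 and 1.19 CPM against 0.171, 0.295 and 0.22 CPM (2.68, SE 0.43). Without AT1G07985, the 19 tested genes around PNET1 changed by -0.99 to 0.72, and 5 of them were called. Whether an inserted sequence lies near any of these genes was not tested.

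**Figure D5:**
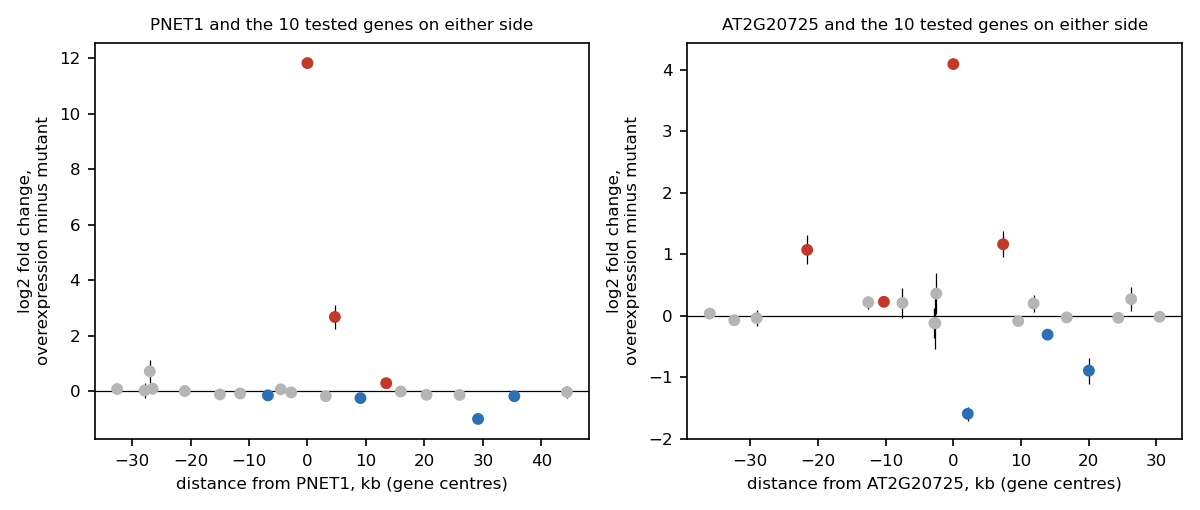
Points are tested genes around PNET1 (left) and AT2G20725 (right), placed by distance in kb between gene centres and by log2 fold change, overexpression minus mutant, with bars of 1 SE; red was called higher, blue lower and grey not called. PNET1 at 11.82 and AT2G20725 at 4.1 stand far above their neighbours, and TOM2AH3 at -1.6 lies next to AT2G20725.

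Of the genes without a description, AT1G06957 had the largest rise, from 0.057, 0.236 and 0.0549 CPM in the mutant to 6.15, 6.52 and 6.15 CPM (5.70, SE 0.33), with 4.15, 4.07 and 5.42 CPM in the wild type. AT1G75945 had the largest fall of all genes, from 12.2, 11.5 and 13.6 CPM in the mutant to 0.444, 0.458 and 0.324 CPM (-4.91, SE 0.20), with 1.40, 1.62 and 1.59 CPM in the wild type. In both genes the 3 groups did not overlap and the wild type lay between the lines. Both were picked for the size of their change, so the gap between mutant and overexpression is not a result.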

How the data were processed

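Raw read counts for each gene and library were used as the authors deposited them. HISAT2 2.0.4, HTSeq 0.6.1p1 and the TAIR10 build are named in the submitters' processing notes. Libraries were strand-specific per the labels' protocols, but no source used here gives the strand setting of the counting, so antisense and overlapping genes are uncertain. FPKM values in a second table were made by the authors and served only to rank PNET1. In the RefSeq TAIR10.1 annotation 32548 of 32833 gene identifiers were found, 32532 with the same position.

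All 9 libraries entered 1 fit with edgeR 4.0.16 in R 4.3.3 (TMM factors, robust quasi-likelihood test), with a mean per genotype, after filterByExpr had left out 13135 genes. Standard errors (SE) were the absolute log2 fold change divided by the square root of its F value. Adjusted p-values cover all genes tested. The steps were tested on simulated data with far fewer changed genes than were called here. Scaling under so broad a shift was not simulated. Gene lists and families were described by counts and medians, without a set test; they, and the comparison itself, were chosen with earlier results of these data known. List symbols shared by unrelated genes (PLT3, PLT5, ACO3 and NDC1) were set to the intended locus by description, after values had been seen. Named genes were PNET1, the 12 largest rises and falls (genes with a symbol, groups without overlap, 2 CPM or more where higher), and from each list up to 4, and each family up to 3, of the most changed called genes. Alternatives were other scaling, filters, DESeq2 1.42.0, limma-voom (limma 3.58.1), the 6 libraries alone, a replicate block, length and GC offsets, and leaving out each replicate.

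Replicate pairs differed by more than sampling noise in each group, chi-square over degrees of freedom being 2.52 to 7.65. Same-numbered mutant and overexpression libraries did not deviate together.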

Additional observations from a re-analysis of the deposited data

How the results depend on the processing

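Counts of genes higher and lower kept within 1.5 times in each alternative run, from 4058 to 4679 higher and from 3250 to 4149 lower, and 0 genes were called in opposite directions (edgeR, DESeq2 and limma-voom). With the replicate block 8366 genes were called, 4428 higher and 3938 lower, and 588 differed from the midpoint. The replicate numbers were not found to pair the samples: same-numbered mutant and overexpression libraries correlated at 0.077, 0.052 and 0.0024 in their deviations. The count of genes where the wild type differed from the midpoint of both lines, 631, ranged from 79 to 979 when 1 library was left out, and was 374 without wild-type replicate 1, 231 without mutant replicate 1 and 340 without mutant replicate 3; the cause was not tested. Of 275 named genes 260 kept their call and direction. Those that changed direction were called in none of the fits where they did so: leaving out 1 library gave -0.064 to 0.024 for PDIL5-1, -0.078 to 0.36 for RHD6, -0.47 to 0.28 for PRP3 and -0.73 to 0.071 for RRN18, and PRP3 was -0.064 with limma-voom. The median of 20 of 84 lists and families changed sign in some alternative; among those described, these were meristem and boundary, xylem, root cap and hair, gibberellin, heat shock, iron, all ribosomal proteins, kinesins, xyloglucan endotransglucosylases, Aux/IAA proteins and ABC transporters. Genes under 1 CPM rested on fewer than 20 counts in a library, which limits what could be called among them.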
